A study of Homo sapiens with 12 samples.

Results

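The anoctamin family (also called TMEM16) was followed through RNA sequencing of 3 human prostate cell lines. Its members were taken by gene symbol, ANO1 to ANO10, and all 10 had a row among the 58302 genes of the deposited table. The lines were BPH-1, labelled as benign, and DU145 and PC3, the prostate cancer (PCa) lines, with 4 libraries each. All 12 libraries carried the genotype label WT and received no treatment, and all lines were grown in Dulbecco's modified Eagle's medium with fetal bovine serum. Each line stands for 1 established culture: BPH-1 is an immortalized prostate epithelial line, DU145 came from a brain metastasis and PC3 from a bone metastasis. No source used here says whether the 4 libraries of a line came from separate cultures, so p-values measure the spread between these libraries, which may be technical, and compare 3 lines, not benign with malignant tissue.

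Anoctamins are membrane proteins that span the bilayer many times and are opened or activated by intracellular calcium. ANO1 and ANO2 are calcium-activated chloride channels, and ANO1 is known for chloride secretion in glands and smooth muscle tone. Several others, of which ANO6 is the best studied, are scramblases: they let phospholipids cross between the leaflets of a membrane, so that phosphatidylserine appears on the cell surface. ANO8 tethers the endoplasmic reticulum to the plasma membrane, and ANO7 is known for its expression in prostate epithelium.

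Levels are given as FPKM, fragments scaled to gene length and library depth. The length is the sum of distinct exons, which counts bases of overlapping exons more than once. It was 1.19 (ANO3) to 2.17 (ANO7) times the length of the merged exons, so levels of different genes can be compared only roughly. The table's header names no unit. The size of 1 read in each library was recovered from the steps between low values, which gave depths of 12950672 to 16309555 reads per library and lets each level be read as a number of reads. Up to 3 reads in a library were taken as not detected, a limit that covers counting error only. In a bulk library, fewer cells with a transcript and less transcript per cell cannot be told apart.

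The epithelial label held in part. Of 6 epithelial genes none was at or under 3 reads throughout any line, but EPCAM was 60.8 ± 2.28 FPKM in BPH-1, 0.376 ± 0.168 in DU145 and 9.10 ± 1.81 in PC3 (SD, n = 4). CDH1 and KRT8 had the same order of means. CDH1 was 28.4 ± 12.2, 0.180 ± 0.0936 and 0.786 ± 0.440 FPKM in BPH-1, DU145 and PC3 (SD, n = 4). KRT8 was 31.1 ± 9.58, 19.7 ± 8.62 and 23.0 ± 6.30, with ranges that overlapped. KRT5 was 147 ± 29.6, 0.216 ± 0.245 and 0.0118 ± 0.0180. The other keratins had other orders. KRT19 was 31.96 ± 9.72, 22.7 ± 6.70 and 232 ± 58.9 FPKM in BPH-1, DU145 and PC3, and KRT18 35.8 ± 6.15, 69.0 ± 21.9 and 29.5 ± 3.55 (SD, n = 4). The sum over the 6 genes was 272 to 376 FPKM in BPH-1, 84.6 to 163 in DU145 and 220 to 367 in PC3. Of the prostate luminal genes, KLK3 had 0 reads in every library and KLK2 at most 3. Summed FPKM of 5 stromal, 4 leukocyte and 3 endothelial markers ranged over 1.97 to 3.70, 4.83 to 8.11 and 0.231 to 0.615 in BPH-1. In DU145 these sums were 0.627 to 1.77, 5.06 to 9.95 and 0.0548 to 0.350, and in PC3 3.01 to 3.88, 6.86 to 13.5 and 1.19 to 2.28. Of the defining leukocyte genes, CD3E had 0 reads and PTPRC stood at 1.35 ± 0.163 FPKM in BPH-1 (SD, n = 4), at 0.649 ± 0.751 in DU145, where its libraries ran from 0 to 1.35, and at 0 in PC3. The part of these cells' genes in the anoctamin levels was not tested.

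3 libraries are below called those that stood apart. Within their lines, DU145 replicates 1 and 3 and PC3 replicate 4 were low in genes with little G and C. For the tenth of genes with the lowest GC content, the median departure from the line mean was -0.36, -0.90 and -0.72 on the log2(FPKM + 0.1) scale in these libraries. In DU145 replicates 2 and 4 it was 0.81 and 0.49, so that this line split into a low and a high pair. PC3 replicates 1, 2 and 3 were at 0.56, 0.37 and -0.21, and the BPH-1 libraries lay between -0.09 and 0.09. Among the anoctamins, ANO6 is 43.2% GC (percentile 24.3 of the expressed genes), while ANO8 is 66.0% (percentile 98.2). Results for both are therefore given with and without these libraries. Without them, DU145 rests on replicates 2 and 4 only, its high pair for low-GC genes, and PC3 on replicates 1 to 3.

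The 10 genes lie apart in the GRCh38 genome: ANO1, ANO3, ANO5 and ANO9 on chromosome 11, ANO2, ANO4 and ANO6 on chromosome 12, ANO7 on chromosome 2, ANO8 on chromosome 19 and ANO10 on chromosome 3. The longest stretch that transcripts of any pair of members share is 29 bases, between ANO1 and ANO2. Near-identical copies within the family are therefore not a source of shared reads beyond such a stretch. Strand use in counting was not given in the sources used here, and the genes that overlap a member on the other strand are named with it.

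Promoter sequences were taken from RefSeq (GRCh38.p14, 250 bases before to 50 after the start of transcription). RefSeq had an entry for 8 of the 10 members, and ANO8 and ANO9 are named only. Those of ANO2, ANO7 and ANO10 are shown because their start lies 0, 168 and 0 bases from the start of the gene in the deposited table, and ANO1 is shown because it varied most between the lines. The RefSeq start of ANO1 lies 92395 bases upstream of the deposited gene, so its reads were not counted from there. Capitals mark the GC box GGGCGG, the CCAAT box and the TATA box (its core TATAAA), each searched on both strands.
ANO1, chr11:69985657-69985956, plus strand: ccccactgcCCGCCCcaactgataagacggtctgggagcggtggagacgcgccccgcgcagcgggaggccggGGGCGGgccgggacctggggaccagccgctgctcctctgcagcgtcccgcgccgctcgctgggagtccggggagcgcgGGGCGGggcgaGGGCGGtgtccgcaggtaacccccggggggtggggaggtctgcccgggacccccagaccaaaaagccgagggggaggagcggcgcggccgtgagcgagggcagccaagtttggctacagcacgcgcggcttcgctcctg
ANO2, chr12:5946183-5946482, minus strand: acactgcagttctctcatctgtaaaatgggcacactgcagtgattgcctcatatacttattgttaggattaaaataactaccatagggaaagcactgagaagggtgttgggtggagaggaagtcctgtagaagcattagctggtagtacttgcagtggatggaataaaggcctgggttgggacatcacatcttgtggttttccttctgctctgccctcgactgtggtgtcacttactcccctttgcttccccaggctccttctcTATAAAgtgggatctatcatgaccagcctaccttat
ANO7, chr2:241188427-241188726, plus strand: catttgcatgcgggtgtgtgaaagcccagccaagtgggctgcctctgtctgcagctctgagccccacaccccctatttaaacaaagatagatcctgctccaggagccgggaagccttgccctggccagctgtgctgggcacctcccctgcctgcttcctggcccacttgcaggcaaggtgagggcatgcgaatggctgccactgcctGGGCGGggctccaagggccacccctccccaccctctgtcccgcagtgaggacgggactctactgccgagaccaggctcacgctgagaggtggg
ANO10, chr3:43691545-43691844, minus strand: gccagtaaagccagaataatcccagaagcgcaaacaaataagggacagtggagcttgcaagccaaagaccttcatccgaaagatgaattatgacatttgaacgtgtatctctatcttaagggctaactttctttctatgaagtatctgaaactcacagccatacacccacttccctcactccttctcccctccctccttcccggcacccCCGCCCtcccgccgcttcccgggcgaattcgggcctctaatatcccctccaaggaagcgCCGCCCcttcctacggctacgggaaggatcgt
The ANO1 window held 4 GC boxes and 36 CpG dinucleotides, the ANO10 window 2 and 15, the ANO7 window 1 and 8, and the ANO2 window no GC box, 1 TATA box and 1 CpG. RefSeq gives another start for ANO2 and another for ANO10. The one 973 bases from the ANO2 start of the table held 43 CpG and 1 GC box, and the one 69583 bases from that of ANO10 held 34 CpG, 6 GC boxes and 1 CCAAT box. Over all 35116 RefSeq promoters of this length, the median was 14 CpG, and 45.0% held a GC box, 34.6% a CCAAT box and 11.5% a TATA box. These matches describe the letters only.

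Summed over the family, PC3 held the most anoctamin transcript and DU145 the least. The sum of FPKM over the 10 genes was 18.1 ± 2.42 in BPH-1, 9.03 ± 2.34 in DU145 and 28.3 ± 1.29 in PC3 (SD, n = 4). The lowest PC3 library, at 26.7, lay above the highest BPH-1 library, at 21.6, and the lowest BPH-1 library, at 16.2, above the highest DU145 library, at 11.4. The leading gene differed by line. ANO6 made up 54.4% of the mean sum in BPH-1, ANO1 made up 44.2% in PC3, and ANO6 and ANO8 made up 34.6% and 34.3% in DU145.

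**Figure D1:**
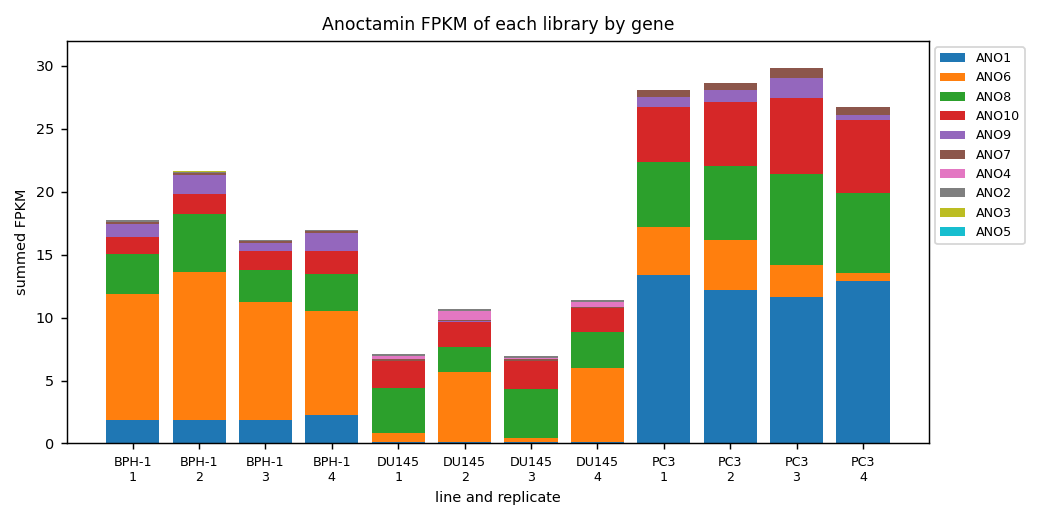
Stacked bars of FPKM (y axis, linear from 0) for the anoctamin genes in each of the 12 libraries (x axis, line and replicate). The PC3 bars reach 26.7 to 29.8 FPKM with ANO1 as the largest part, the BPH-1 bars 16.2 to 21.6 with ANO6 as the largest part, and the DU145 bars split into replicates 1 and 3 with little ANO6 and replicates 2 and 4 with more.

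In BPH-1 the mean levels ran in the order ANO6, ANO8, ANO1, ANO10, ANO9, ANO7, ANO2, ANO4, ANO3 and ANO5. The ranges over libraries overlapped for ANO1 and ANO10, ANO10 and ANO9, ANO7 and ANO2, ANO4 and ANO3, and ANO3 and ANO5. In DU145 the order was ANO6, ANO8, ANO10, ANO4, ANO2, ANO7, ANO1, ANO9, ANO3 and ANO5, and the overlapping neighbours were ANO6 and ANO8, ANO8 and ANO10, ANO4 and ANO2, ANO2 and ANO7, ANO7 and ANO1, and ANO3 and ANO5. In PC3 the order was ANO1, ANO8, ANO10, ANO6, ANO9, ANO7 and ANO3, with ANO2, ANO4 and ANO5 at 0, and the ranges overlapped for ANO8 and ANO10, ANO6 and ANO9, ANO9 and ANO7, and ANO3 and the genes at 0. With gene length taken as merged exons, ANO8 and ANO10 changed places in PC3 (8.32 and 9.81 FPKM) and ANO2 and ANO7 in DU145 (0.217 and 0.296 FPKM).

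**Figure D2:**
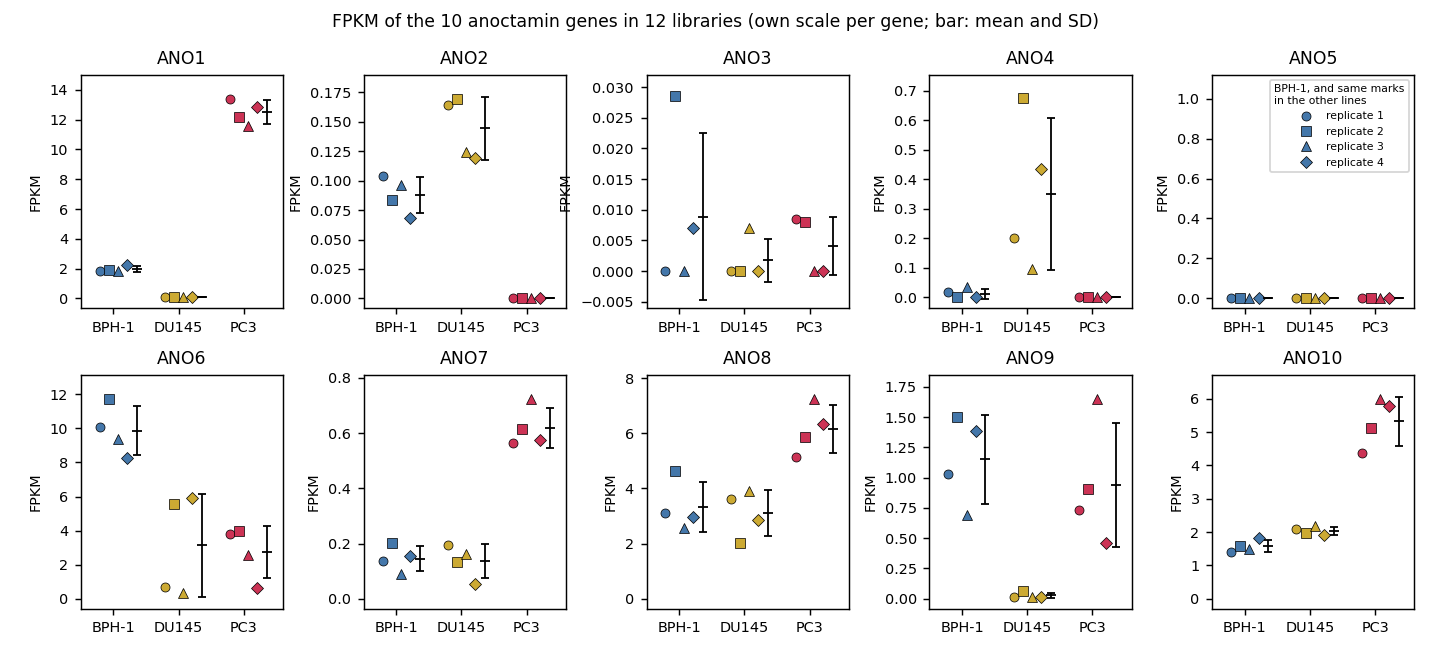
FPKM (y axis, linear, own scale for each gene) of the 10 anoctamin genes in 4 libraries of each line (x axis). Points are libraries, their shape is the replicate number, and the bar beside them is the mean with its SD. ANO1 at 11.6 to 13.4 FPKM in PC3, ANO9 at up to 0.0615 in DU145 and the split of ANO6 in DU145 can be seen, and ANO5 is at 0 throughout.

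The chloride channels come first. ANO1 (ENSG00000131620, chromosome 11, 70078302 to 70189528, plus strand) was highest in PC3 and barely detected in DU145. Its FPKM was 1.83, 1.88, 1.86 and 2.24 in the BPH-1 libraries. In DU145 it was 0.120, 0.0928, 0.0981 and 0.0806, which is 10 to 18 reads per library. In PC3 it was 13.4, 12.2, 11.6 and 12.9, or 1488 to 1606 reads. No 2 lines overlapped. The ratio of means was 6.41 for PC3 over BPH-1, 19.9 for BPH-1 over DU145 and 128 for PC3 over DU145. From the 6178 reads of PC3 and 56 of DU145, the ratio per read of depth was 127 with an exact 95% counting interval of 97.3 to 168. Such an interval is taken on pooled reads and leaves out the spread between libraries, which exceeded sampling noise in every line. ANO1 did not depend on the libraries that stood apart: without them PC3 was higher than BPH-1 by 2.18 and higher than DU145 by 3.62 on the log2 scale used below for the tests, and DU145 was at -1.44 against BPH-1. The antisense gene ANO1-AS1, which shares 722 bases with it, had 6 reads in all 12 libraries together.

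ANO2 (ENSG00000047617, chromosome 12, 5531869 to 5946232, minus strand), the other chloride channel and known from the cilia of olfactory neurons, had its means in the reverse order of ANO1. Its FPKM was 0.103, 0.0836, 0.0959 and 0.0682 in BPH-1 and 0.164, 0.170, 0.124 and 0.119 in DU145, from 10 to 26 reads per library. It had 0 reads in all 4 PC3 libraries. Against a limit of 3 reads per library, ANO2 was at least 3.68-fold lower in PC3 than in BPH-1 and at least 6.03-fold lower than in DU145. The BPH-1 and DU145 libraries did not overlap, with the DU145 mean 1.64 times that of BPH-1.

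The lines were compared by limma on log2(FPKM + 1), so that a log2 fold change understates the change of a low gene. A gene was tested if 4 libraries held 10 or more of its reads, scaled to the median depth, and all libraries of the fit together 15 or more. It was called at a Benjamini-Hochberg adjusted p under 0.05 over all genes tested. A single gene under this limit was compared by a two-sided exact permutation test on FPKM, whose smallest p with 4 libraries in each line is 0.0286.

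Of the 6 anoctamins tested between PC3 and BPH-1, 4 rose and 1 fell in PC3. Of all 16407 genes tested, 67.6% were called, 27.1% higher and 40.4% lower in PC3, with a median log2 fold change of -0.13. ANO1 rose by 2.19 ± 0.10 (SE; limma adjusted p = 2.05e-07), ANO10 by 1.29 ± 0.12 (adjusted p = 1.65e-05), ANO8 by 0.74 ± 0.16 (adjusted p = 0.00271) and ANO7 by 0.50 ± 0.05 (adjusted p = 3.34e-05). ANO6 fell by 1.65 ± 0.32 (adjusted p = 0.00139). ANO9 was at -0.17 (95% interval -0.60 to 0.26, limma adjusted p = 0.448). ANO2, ANO3, ANO4 and ANO5 had too few reads to be tested, and among these the lines did not overlap for ANO2 (two-sided exact permutation p = 0.0286).

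Of the 8 tested between DU145 and BPH-1, 1 rose and 3 fell in DU145. The background was 62.7% called of 17017 genes, 30.3% higher and 32.4% lower in DU145, with a median log2 fold change of -0.03. ANO1 fell by 1.43 ± 0.08 (SE; limma adjusted p = 8.93e-07), ANO6 by 1.76 ± 0.51 (adjusted p = 0.0128) and ANO9 by 1.05 ± 0.12 (adjusted p = 3.75e-05). ANO4 rose by 0.40 ± 0.11 (adjusted p = 0.0114). ANO4 passed the read limit only through DU145 and ANO9 only through BPH-1. The limit itself thus selected for a difference in both, and their calls are no separate support. ANO2 reached the limit in 4 DU145 and 3 BPH-1 libraries. ANO10 was at 0.24 (interval -0.04 to 0.52), ANO2 at 0.07 (-0.01 to 0.16), ANO7 at -0.01 (-0.13 to 0.10) and ANO8 at -0.07 (-0.55 to 0.40), none called. For ANO2 and ANO10 all 4 DU145 libraries lay above all 4 BPH-1 libraries, without a call.

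Of the 8 tested between PC3 and DU145, 5 were higher and 2 lower in PC3, beside 48.3% called of 16421 genes, 20.0% higher and 28.3% lower, with a median log2 fold change of -0.05. ANO1 was higher by 3.62 ± 0.13 (SE; limma adjusted p = 1.32e-07), ANO10 by 1.05 ± 0.14 (adjusted p = 0.000287), ANO9 by 0.88 ± 0.16 (adjusted p = 0.00144), ANO8 by 0.82 ± 0.19 (adjusted p = 0.00592) and ANO7 by 0.51 ± 0.06 (adjusted p = 0.000154). ANO2 was lower by 0.19 ± 0.03 (adjusted p = 0.00106) and ANO4 by 0.42 ± 0.12 (adjusted p = 0.0154). ANO2 and ANO4 passed the read limit only through DU145 and ANO9 only through PC3. The limit itself thus selected for a difference in each, and their calls are no separate support. ANO6 was at 0.11 with a 95% interval of -1.26 to 1.48. These comparisons share libraries in pairs, since each line enters 2 of them.

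**Figure D3:**
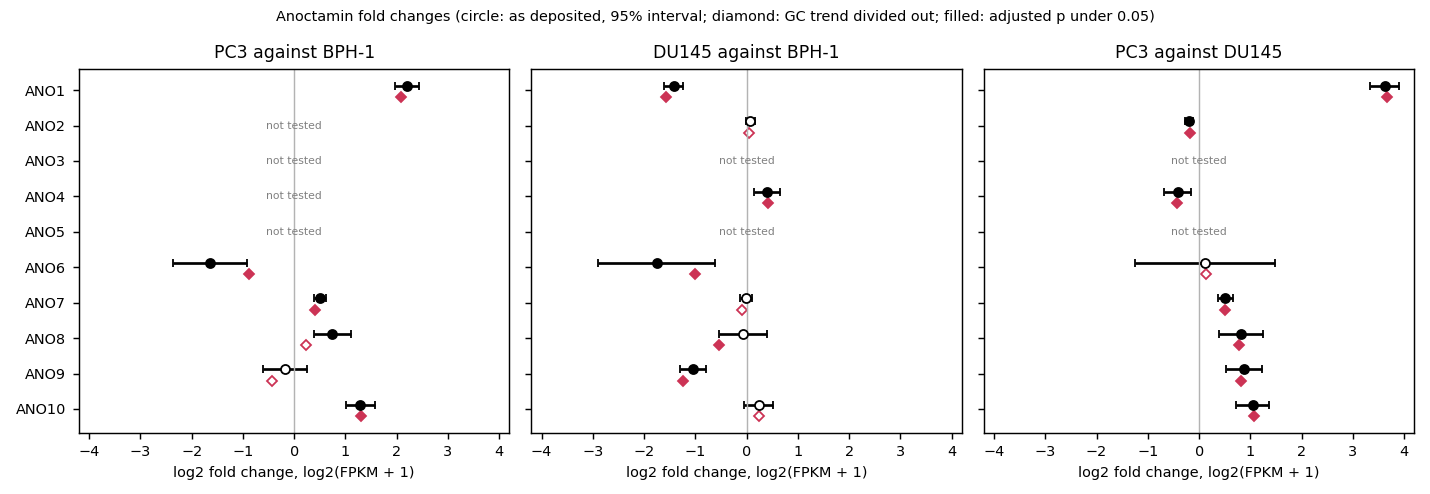
Log2 fold changes on the log2(FPKM + 1) scale (x axis) of the anoctamin genes (y axis) in the 3 comparisons. Circles are the values as deposited with their 95% interval, diamonds the values after a GC trend was divided out of each library, and filled symbols have an limma adjusted p under 0.05. ANO1 lies farthest from 0 in PC3 against DU145, at 3.62, ANO6 has the widest intervals, and ANO8 is filled in different comparisons for the circle and the diamond.

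Of the scramblases, ANO6 (ENSG00000177119, chromosome 12, 45215987 to 45440404, plus strand) is taken first. It had the highest mean of the family in BPH-1 and DU145, in DU145 with a range that overlapped that of ANO8. In PC3 it had rank 4, below ANO1, ANO8 and ANO10. It is the scramblase of platelets, where its loss causes Scott syndrome, a bleeding disorder. Its FPKM was 10.1, 11.7, 9.37 and 8.29 in BPH-1, from 1562 to 2163 reads. In DU145 it was 0.695, 5.56, 0.354 and 5.91, and in PC3 3.82, 3.98, 2.58 and 0.646. All 8 cancer line libraries lay below all BPH-1 libraries, with means 3.15-fold lower in DU145 and 3.58-fold lower in PC3. The same separation held for the median of genes with like GC content, given below. The DU145 libraries fell into a low and a high pair whose levels differed more than the line means did.

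The low ANO6 libraries were the 3 that stood apart in genes of low GC content. In DU145 replicates 1 to 4, ANO6 departed from the line mean by -1.24, 1.60, -2.04 and 1.68 on the log2(FPKM + 0.1) scale. The median of the 1259 expressed genes within 1 percentage point of its GC content departed by -0.32, 0.60, -0.72 and 0.46. In PC3 the departures of ANO6 were 0.72, 0.78, 0.17 and -1.67, beside medians of 0.22, 0.23, 0.01 and -0.42. In these 8 libraries ANO6 moved in the same direction as genes of like GC content and by a larger amount. Departures from a line mean do not show differences between lines. The median level of the 1259 genes was 4.67 to 5.04 FPKM in the BPH-1 libraries, 1.25 to 3.66 in DU145 and 1.55 to 2.97 in PC3. All 8 cancer line libraries thus lay below BPH-1 for these genes as well, and the part of this shift in the ANO6 difference was not tested. The 3 libraries that stood apart were then left out, a choice made after the data were seen. This kept only DU145 replicates 2 and 4, its high ANO6 pair, and PC3 replicates 1 to 3. ANO6 then fell by 0.68 in DU145 (limma adjusted p = 0.00545) and by 1.29 in PC3 (adjusted p = 0.000154) against BPH-1. PC3 then lay below DU145 by -0.61 (adjusted p = 0.0295), where all libraries gave 0.11. With a GC trend divided out of every library, ANO6 fell by 1.02 in DU145 (adjusted p = 0.0451) and by 0.89 in PC3 (adjusted p = 0.0113).

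**Figure D4:**
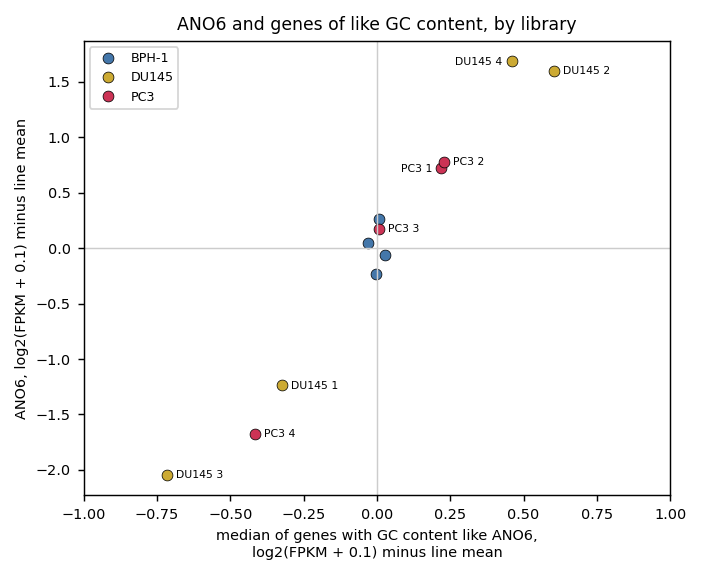
Departure of ANO6 from its line mean (y axis, log2(FPKM + 0.1)) against the median departure of the 1259 genes with like GC content (x axis, same scale) in the 12 libraries, coloured by line. DU145 replicates 1 and 3 and PC3 replicate 4 lie at the lower left, at -1.24, -2.04 and -1.67 for ANO6, and DU145 replicates 2 and 4 at the upper right.

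ANO9 (ENSG00000185101, chromosome 11, 417933 to 442011, minus strand), a family member found in epithelia, was present in BPH-1 and PC3 and near the limit of detection in DU145. Its FPKM was 1.03, 1.4999, 0.689 and 1.39 in BPH-1 and 0.729, 0.908, 1.65 and 0.458 in PC3, ranges that overlap. In DU145 it was 0.0155, 0.0615, 0.0162 and 0.0187, from 3, 12, 3 and 3 reads. The 851 reads of BPH-1 and 21 of DU145 gave a ratio per read of depth of 40.2 (exact 95% counting interval 26.1 to 65.3). The 607 reads of PC3 gave 33.2 over DU145 (21.5 to 54.0). Both intervals leave out the spread between libraries. The next gene on the same strand, SIGIRR, a negative regulator of interleukin receptor signalling, was at 0.532, 0.106 and 1.23 FPKM in BPH-1, DU145 and PC3, and was lower in DU145 than in BPH-1 by -0.47 (limma adjusted p = 0.00011).

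ANO4 (ENSG00000151572, chromosome 12, 100717526 to 101128641, plus strand), described as a neuronal scramblase and cation channel, was detected mainly in DU145. Its FPKM in DU145 was 0.201, 0.674, 0.0967 and 0.435, from 24, 81, 11 and 43 reads. In BPH-1 it had 2, 0, 4 and 0 reads, and in PC3 0 in every library. The 159 reads of DU145 and 6 of BPH-1 gave a ratio of 26.7 with a counting interval of 11.997 to 73.8. This interval leaves out the spread between the DU145 libraries. ANO4 was at least 11.5-fold lower in PC3 than in DU145. ANO4 is 44.6% GC, and its lower values in DU145 fell in replicates 1 and 3. Without the 3 libraries that stood apart, DU145 kept only replicates 2 and 4, its highest for ANO4, and the rise against BPH-1 was 0.61. ANO4 passed the read limit only through DU145, so this value is no separate support. A pseudogene within the gene on the same strand, AC063947.2, had 64 reads over all libraries and its highest mean in BPH-1, at 0.463 FPKM.

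ANO7 (ENSG00000146205, chromosome 2, 241188509 to 241225377, plus strand), the member named for the prostate (NGEP), was low in all lines and highest in PC3. Its FPKM was 0.137, 0.202, 0.0887 and 0.156 in BPH-1, 0.195, 0.134, 0.163 and 0.0543 in DU145, and 0.563, 0.614, 0.724 and 0.575 in PC3. The PC3 libraries, with 90 to 124 reads, lay above all others, and their mean was 4.25 times that of BPH-1 and 4.54 times that of DU145. The BPH-1 and DU145 libraries overlapped. Its flanking genes differed in direction between PC3 and BPH-1: HDLBP, an RNA-binding protein gene, rose by 0.53 (limma adjusted p = 0.00191) and PPP1R7, a phosphatase regulator, fell by 1.17 (adjusted p = 1.77e-05).

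ANO3 and ANO5 were at or near 0. ANO3, a gene of dystonia, had 0, 4, 0 and 1 reads in BPH-1, 1 read in DU145 and 2 in PC3. The mucin gene MUC15 overlaps ANO3 on the opposite strand and stood at 0.241 FPKM in BPH-1, 0 in DU145 and 0.0112 in PC3. ANO5, a gene of limb-girdle muscular dystrophy, had 0 reads in all 12 libraries. Its row in the table starts at 22193176 and GENCODE 29 starts the gene at 21799934, so the annotations differ there.

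The remaining members, ANO8 and ANO10, were expressed in all lines and highest in PC3. ANO10 (ENSG00000160746, chromosome 3, 43354859 to 43691594, minus strand), whose loss causes a recessive cerebellar ataxia, was at 1.40, 1.59, 1.5019 and 1.84 FPKM in BPH-1, at 2.09, 1.97, 2.20 and 1.91 in DU145, and at 4.39, 5.12, 5.998 and 5.80 in PC3. No 2 lines overlapped, and the ratio of means was 3.37 for PC3 over BPH-1 and 2.61 for PC3 over DU145. With the GC trend divided out it rose by 1.31 in PC3 against BPH-1 (limma adjusted p = 1.36e-05). ABHD5, a lipase activator gene, overlaps its span on the other strand by 1487 bases. It ran at 5.87, 1.36 and 4.76 FPKM in BPH-1, DU145 and PC3, an order unlike that of ANO10. The kinase gene SNRK, which overlaps it by 69906 bases, was at 0.473, 0.411 and 0.658 FPKM. POMGNT2, an enzyme of dystroglycan glycosylation and the next gene on the same strand, rose by 2.13 in PC3 against BPH-1 (adjusted p = 4.88e-06).

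ANO8 (ENSG00000074855, chromosome 19, 17323223 to 17334829, minus strand) was at 3.12, 4.62, 2.55 and 2.96 FPKM in BPH-1, at 3.62, 2.02, 3.89 and 2.87 in DU145, and at 5.16, 5.88, 7.25 and 6.35 in PC3. The PC3 libraries lay above all others, and those of BPH-1 and DU145 overlapped. In DU145 its higher values were those of replicates 1 and 3, the reverse of ANO6. With the GC trend divided out, the rise in PC3 against BPH-1 was 0.23 and no longer called (limma adjusted p = 0.187), and DU145 lay below BPH-1 by -0.54 (adjusted p = 0.00918). Without the 3 libraries that stood apart, ANO8 was 0.73 higher in PC3 than in BPH-1 (adjusted p = 0.00663) and 1.04 higher than in DU145 (adjusted p = 0.00486), and DU145 was at -0.31 against BPH-1 (adjusted p = 0.237). ABHD8, the next gene on the same strand, rose by 1.41 in PC3 against BPH-1 (adjusted p = 6.85e-06), and DDA1, which shares 79 bases on the other strand, rose by 0.52 (adjusted p = 0.0349).

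The genes whose level was most like that of a member over the 12 libraries were sought among 11889 coding genes by Pearson r on log2(FPKM + 1). The libraries form 3 lines and share depth and GC effects, so r describes mainly the order of the lines. For ANO1 these were RTL8B (r = 0.997) and SKI, a repressor of TGF-beta signalling (0.996). RTL8B stood at 1.82, 0.0639 and 17.2 FPKM in BPH-1, DU145 and PC3, an order and spread near those of ANO1. For ANO6 they were LRCH1 (0.993) and FANCI, a Fanconi anaemia gene (0.993), of which FANCI is 43.1% GC. For ANO7 they were PLEKHG5 (0.990) and TNFRSF25 (0.989), for ANO8 DHRS3 (0.971) and SPEG (0.958), and for ANO10 PPP1R16A (0.993) and FN3K (0.992). For ANO9 they were TNFSF15 (0.976) and PDK3 (0.957), and TNFSF15 was at 2.36, 0.0229 and 1.61 FPKM in the 3 lines.

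Other gene lists were read against the shares of all genes called, 67.6% for PC3 and 62.7% for DU145 when each was set against BPH-1, and 48.3% between the cancer lines. Shares of a list are given in this order. Each list was also counted with the GC trend divided out and without the 3 libraries that stood apart, choices made after the data were seen.

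Scramblases outside the family were also followed. Of 12 genes in the list, 9 were tested in each comparison, and 2 rose and 3 fell in PC3 against BPH-1, 3 rose and 1 fell in DU145 against BPH-1, and none rose and 2 fell in PC3 against DU145. The medians were -0.12, -0.03 and -0.01 beside -0.13, -0.03 and -0.05 for all genes, and the shares called were 55.6%, 44.4% and 22.2%, each below that of all genes. XKR6 was among the genes that fell in both comparisons of PC3, after it had passed the read limit through 1 line only. After GC correction, 4 rose and 2 fell in PC3 and 6 rose and 1 fell in DU145 against BPH-1. XKR8, the scramblase cut by caspases in apoptosis, rose by 1.34 in PC3 and 0.93 in DU145 against BPH-1 (limma adjusted p = 1.13e-05 and 0.0026). PLSCR1, an interferon-induced gene named as a scramblase, fell by 1.52 in PC3 and fell by 1.46 in DU145 (adjusted p = 0.000352 and 0.000744). After GC correction PLSCR1 was at -0.50 and -0.32, neither called (adjusted p = 0.0639 and 0.295), and without the 3 libraries it was at -1.44 and -1.27, both called. Other named members of the list were ATG9A, an autophagy scramblase, which rose by 0.69 in PC3, and TMEM41B, which fell by 0.88 there. ATG9A kept its call at 0.37 with the GC trend divided out, while TMEM41B was then at 0.06 (limma adjusted p = 0.692).

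The flippases work against the scramblases by returning phosphatidylserine to the inner leaflet. Of 16 listed genes, 13 were tested between PC3 and BPH-1 and 3 rose and 7 fell, with a median of -0.45. Between DU145 and BPH-1 14 were tested and 4 rose and 6 fell (median -0.15), and between PC3 and DU145 3 rose and 3 fell (median 0.02). The shares called were 76.9%, 71.4% and 42.9%. Of the called genes in DU145 against BPH-1, 2 that rose and 3 that fell had passed the read limit through 1 line only, as had ATP8B3 in PC3 against BPH-1. In PC3 against DU145 the same held for ATP8A1 and ATP8A2, higher in PC3, and ATP10A, lower in PC3. The GC correction left 4 higher and 7 lower in PC3 (median -0.30), and 6 higher and 3 lower in DU145 (median 0.03). Without the 3 libraries these counts were 4 and 7, and 5 and 6. TMEM30B, a subunit that flippases need, fell by 3.22 in PC3 and by 4.09 in DU145 (limma adjusted p = 1.39e-07 and 8.69e-08). ATP11B fell by 1.96 in PC3 and ran from 0.668 to 2.92 FPKM over the PC3 libraries. It was at -0.46 there after GC correction (adjusted p = 0.0262) and without the 3 libraries at -1.70. ATP8B3 rose by 1.34 and 1.66, and ATP10A rose by 2.37 in DU145, where it was at 4.27 ± 0.501 FPKM against 0.0169 ± 0.00577 in BPH-1 (SD, n = 4). ATP10A passed the read limit only through DU145. ATP10A was lower in PC3 than in DU145 by -2.26 and TMEM30B higher by 0.86.

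The structural relatives are the TMC and TMEM63 genes. Of 8 tested, 5 rose and 1 fell in PC3 against BPH-1, 4 rose and 1 fell in DU145, and 4 were higher and 1 lower in PC3 than in DU145. Their medians were 0.73, 0.30 and 0.17, and 6, 5 and 5 genes were called, beside the 67.6%, 62.7% and 48.3% of all genes. TMC4 passed the read limit through 1 line only in both comparisons with DU145, and TMC8 in PC3 against DU145. After GC correction, 5 rose and 1 fell in PC3 and 3 rose and 3 fell in DU145 against BPH-1. TMEM63A, a mechanosensitive channel, rose by 1.29 in PC3 and 1.53 in DU145, TMC7 by 1.03 in PC3 and TMEM63C by 1.60 in DU145. TMC4 fell by 0.71 in PC3 and fell by 1.22 in DU145. Limma adjusted p for these ran from 1.34e-05 to 0.000852.

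Genes that raise or carry the calcium signal of anoctamins came next: receptors, phospholipases, release and entry channels and calmodulins, 21 in the list. Of 20 tested, 8 rose and 4 fell in PC3 against BPH-1 (median 0.23), and 4 rose and 7 fell in DU145 (median 0.05). Of 21 tested between PC3 and DU145, 8 were higher and 2 lower in PC3 (median 0.29). The shares called were 60.0%, 55.0% and 47.6%. In each comparison with DU145, 2 of the called genes had passed the read limit through 1 line only: P2RY6 and P2RY1 against BPH-1, P2RX7 and P2RY6 in PC3 against DU145. After GC correction, 9 rose and 3 fell in PC3 and 5 rose and 9 fell in DU145 against BPH-1. P2RY2, an ATP receptor that acts on ANO1 through calcium, was at 3.13 ± 0.621 FPKM in BPH-1, 4.39 ± 1.25 in DU145 and 20.04 ± 1.13 in PC3 (SD, n = 4). It rose by 2.36 in PC3 against BPH-1 (limma adjusted p = 4.36e-07). The inositol trisphosphate receptor ITPR1 rose by 1.84 there, while ITPR2 fell by 1.27 and CALM2 by 0.98. After GC correction ITPR2 was at -0.59, still called, and CALM2 turned to 0.77 (limma adjusted p = 0.0171). In DU145, F2RL1, a protease-activated receptor, fell by 2.93 and ITPR2 by 1.36, and P2RX4 and STIM1 rose by 0.78 and 0.73. STIM1 was at 0.41 with the GC trend divided out and no longer called (adjusted p = 0.0545). F2RL1 was 3.29 higher in PC3 than in DU145. ITPR1 is among the genes with a wide spread within DU145, from 0.446 to 3.95 FPKM.

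EZR, RDX and MSN encode the ezrin, radixin and moesin that link ANO1 to cortical actin. In PC3 against BPH-1, RDX fell by 2.33 (limma adjusted p = 3.64e-05) and EZR by 0.91 (adjusted p = 0.0012), and MSN was at 0.17 (adjusted p = 0.202). In DU145, RDX fell by 2.02, EZR by 1.09 and MSN by 0.36. RDX varied within the lines, from 1.11 to 5.09 FPKM in DU145 and from 0.828 to 3.16 in PC3. It fell by 1.18 in PC3 and by 0.73 in DU145 after GC correction (limma adjusted p = 0.000123 and 0.000795), and without the 3 libraries it stood at -2.103 and -1.44. MSN was 0.53 higher in PC3 than in DU145.

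ANO1 lies at 11q13, a region often amplified together in carcinomas with CCND1, the gene of cyclin D1. All 11 neighbours listed were in the deposited table, with LTO1 under that symbol and not its other name, ORAOV1. Of 8 tested, 3 rose and 1 fell in PC3 against BPH-1 (median 0.07), and of 9 tested, 7 rose and none fell in DU145 (median 0.63), beside 30.3% of all genes higher there. MYEOV and FGF19 were among these 7 and passed the read limit only through DU145. The limit itself thus selected for their rise, as it did for that of MYEOV in PC3. After GC correction, 2 rose and 2 fell in PC3 and 4 rose and none fell in DU145 (median 0.28). Between PC3 and DU145, 2 were higher and 4 lower in PC3 (median -0.56). CCND1 rose by 1.39 in PC3 and 0.74 in DU145 (limma adjusted p = 4.27e-06 and 0.00185), and MYEOV by 1.05 and 0.63. CCND1 was at 1.15 and 0.28 after GC correction, of which the second was not called (adjusted p = 0.195). FADD, the death receptor adaptor and the coding gene next to ANO1, rose by 0.63 and 0.62 and differed by 0.00 between PC3 and DU145. FADD was at 0.29 and 0.13 with the GC trend divided out, neither called (adjusted p = 0.0758 and 0.449), and at 0.28 in DU145 without the 3 libraries (adjusted p = 0.108). On the other side, FGF3 had 0 reads in every library. PPFIA1 fell by 0.55 in PC3, and TPCN2, a lysosomal channel gene, rose by 0.97 in DU145. TPCN2 and CTTN were lower in PC3 than in DU145 by -0.75 and -0.83.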

How the data were processed

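Total RNA of 12 libraries, 4 for each line, was sequenced after preparation with a NEBNext Ultra RNA kit. The submitters' processing notes name CASAVA 1.8, HISAT2 2.1.0, edgeR and GRCh38 without their roles; the annotation, counter and strand setting were not given in the sources used here. The authors deposited 1 table of 58302 genes whose values have the form of FPKM. The members and gene lists were chosen with earlier results of these data known.

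Taking length as the sum of distinct exons in GENCODE 29, 96.0% to 96.8% of values of up to 50 reads were whole within 0.05, which gave the depth of each library (12950672 to 16309555 reads). For 263 genes no length was found, and they were not tested. No 2 libraries of a line agreed within sampling noise (chi-square per gene 18.3 to 226 over 18 pairs). Values were compared as deposited on log2(FPKM + 1) with limma 3.58.1 (R 4.3.3, intensity trend), each fit holding only the 2 lines compared. GC trends were estimated over genes with 50 or more reads. The fits and the GC correction were tested on simulated data with known changes. Other software was Python 3.11.15, numpy 2.4.6, pandas 2.3.3, scipy 1.17.1 and matplotlib 3.10.9.

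Named genes were the members, genes overlapping or flanking them, the 2 coding genes most like each member with a mean of at least 50 reads, and, from each list, up to 2 called genes with the largest change in each direction; a few listed genes are not reported here. Alternatives were another pseudocount (0.1), filters and scalings, the replicate block, GC correction, 1 fit over all lines, voom on recovered reads, a log2 fold change over 1, and leaving out libraries; counts of listed genes under GC correction and without 3 libraries were added after the data were seen.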

Additional observations from a re-analysis of the deposited data

Results flagged for a closer look

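In 3 of 25 line and gene groups of 4 libraries with any reads, 1 library lay far from the other three by Dixon's test, which flags about 5% of groups by chance. These were ANO1 in BPH-1, whose highest library had 2.24 FPKM, ANO3 in DU145, whose highest had 0.00707 FPKM, a single read, and ANO9 in DU145, whose highest had 0.0615 FPKM, or 12 reads beside 3 in each of the others.

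The change against BPH-1 differed between PC3 and DU145, by the limma test of PC3 against DU145 itself, for ANO1 (3.62 on the log2(FPKM + 1) scale), ANO10 (1.05), ANO9 (0.88), ANO8 (0.82), ANO7 (0.51), ANO2 (-0.19) and ANO4 (-0.42). ANO9, ANO2 and ANO4 passed the read limit in this comparison through 1 line only, so the limit itself selected for their difference. For ANO1 the change had opposite directions in the 2 lines, with every PC3 library above and every DU145 library below the BPH-1 libraries.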

How the results depend on the processing

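Depth limits the low members: ANO2, ANO3, ANO4 and ANO5 had at most 81 reads in any library. Over the alternatives, 431 of the members' log2 fold changes kept direction and call, 11 reversed, 10 were no longer called and 4 became called. Requiring a log2 fold change over 1 left 3 anoctamins called in PC3 against BPH-1 and 2 in PC3 against DU145 (all genes: 4429, 4894 in DU145 against BPH-1, and 3177). A stricter read filter, which tests fewer genes, left 2 called in DU145 against BPH-1 and 4 in PC3 against DU145. With 1 library left out at a time, counts were 5 to 6, 4 to 4 and 7 to 7. Uncalled values changed sign for ANO7 in DU145 against BPH-1 (0.0057 with upper-quartile scaling, 0.011 and 0.023 without BPH-1 replicate 2 or DU145 replicate 4, range -0.037 to 0.023 over libraries left out) and ANO8 there (0.032 with that scaling, 0.060 and 0.064 without BPH-1 or DU145 replicate 2, range -0.17 to 0.06). For ANO6 in PC3 against DU145 it was -0.19, -0.30, -0.05 and -0.07 without DU145 replicate 1 or 3 or PC3 replicate 1 or 2 (up to 0.48 without another), and -0.61 without the 3 libraries low in low-GC genes; apart from this last setting and those that removed libraries, the cause was not tested. Leaving out DU145 replicate 2 or 4 and others moved ANO6 in DU145 against BPH-1 between -2.13 and -1.34, called throughout. Rescaling FPKM to the same sum moved the median of all genes from -0.13 to -0.28 in PC3 against BPH-1 and from -0.03 to -0.16 in DU145 against BPH-1, and dividing out the GC trend moved the first to -0.01. No scaling changed the direction of a called anoctamin. The replicate block left 5, 4 and 7 anoctamins called, with 10734, 10133 and 6745 genes in all. Same-numbered libraries did not deviate together in every pair (correlations -0.69 to 0.56 for PC3 and DU145), so the numbers were not taken as pairing.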
